A study of Homo sapiens with 14 samples.

Results

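The transcripts of 10 genes that encode amino acid transporters of the plasma membrane were followed in 14 RNA sequencing libraries of 293 Flip-In T-REx cells, an established human embryonic kidney line with a site for inserting a transgene. The genes were SLC7A11, SLC7A5, SLC3A2, SLC7A1, SLC7A6, SLC38A1, SLC38A2, SLC1A4, SLC1A5 and SLC6A9, of 22410 genes in all. The genes were chosen by name as a family, and the transcript that stands for each was selected on its mean FPM (fragments scaled to the library total), the highest of the gene's RefSeq transcripts over the 14 libraries. All 10 passed the filter on low counts, as did 16418 genes of the whole table. Lower levels of SLC7A11 and SLC7A5 in the SA1Q line were known from an earlier analysis of the same files when the genes were listed, so for these genes the comparison of SA1Q with ctrl describes what was already seen. The other comparisons that include the SA1Q line use that same line and are not independent of what was known.

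The study was designed to find off-target editing by SNAP-ADARs, fusions of the SNAP tag with the deaminase domain of an ADAR enzyme, which edits adenosine to inosine in RNA. The tag binds a modified guide RNA covalently, and the guide brings the deaminase to a transcript. There were 7 groups of 2 libraries, from experiments that the design text calls biologically independent. The group ctrl held the empty vector and received no guide by its title. SA1Q and SA1Q+gRNA held SNAP-ADAR1Q, whose sample descriptions carry E406Q, without and with guide. SA2Q and SA2Q+gRNA held SNAP-ADAR2Q, with E403Q in the descriptions, and SA1+gRNA and SA2+gRNA held SNAP-ADAR1 and SNAP-ADAR2 without these substitutions, with guide. No library of SA1 or SA2 without guide was analysed here, and ctrl with guide was not analysed here either. The sources used here do not state the guide's target, induction of the transgene or the number of clones per line, so a difference between lines and a difference made by the transgene cannot be told apart.

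Amino acids are charged and polar and cross the plasma membrane through such carriers. Some members work as pairs: SLC3A2 encodes a glycoprotein heavy chain that joins the light chains encoded by SLC7A5, SLC7A6 and SLC7A11 and carries them to the cell surface. Others, such as those of the SLC38, SLC1 and SLC6 families, act without it and are coupled to sodium. Several of these genes, SLC7A11, SLC7A5, SLC3A2 and SLC38A2 among them, are textbook targets of ATF4, a transcription factor translated when amino acids run short, and SLC7A11 is also a target of NRF2, the regulator of the oxidative stress response.

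The promoters of SLC7A5, SLC6A9 and SLC38A2, 3 of the 4 members called lower in at least 1 comparison below, are shown because the results turn on these genes. They are the 250 bases before the transcription start, from RefSeq (GRCh38.p14), 5′ to 3′ on the gene's strand, in lower case with motif matches in capitals. The windows are chr16:87869508-87869757, minus strand, for SLC7A5, chr1:44031463-44031712, minus strand, for SLC6A9 and chr12:46372774-46373023, minus strand, for SLC38A2.
SLC7A5: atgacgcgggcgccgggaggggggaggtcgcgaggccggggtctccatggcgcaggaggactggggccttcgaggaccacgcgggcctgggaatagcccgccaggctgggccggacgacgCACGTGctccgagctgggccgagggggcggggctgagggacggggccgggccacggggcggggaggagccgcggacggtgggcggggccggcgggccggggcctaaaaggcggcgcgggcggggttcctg
SLC6A9: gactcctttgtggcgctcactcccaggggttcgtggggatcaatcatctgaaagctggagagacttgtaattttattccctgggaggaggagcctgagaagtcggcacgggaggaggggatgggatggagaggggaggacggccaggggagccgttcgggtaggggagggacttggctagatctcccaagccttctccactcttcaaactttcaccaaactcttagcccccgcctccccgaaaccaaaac
SLC38A2: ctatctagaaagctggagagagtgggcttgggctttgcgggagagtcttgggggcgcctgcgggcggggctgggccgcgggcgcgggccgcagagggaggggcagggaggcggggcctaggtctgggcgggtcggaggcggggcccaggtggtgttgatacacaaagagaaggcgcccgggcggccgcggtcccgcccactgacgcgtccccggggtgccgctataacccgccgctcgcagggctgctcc
SLC7A5 had 1 match, CACGTG, a sequence known as an E-box, at bases -130 to -125 from the start. SLC6A9 and SLC38A2 had no match to any of the 3 motifs searched on both strands, which were CACGTG, TGATGNAA (an ATF4 type element) and TGACNNNGC (an NRF2 type element). These letters occurred in 6.34%, 3.14% and 10.9% of 35116 RefSeq promoters of the same length, in that order. Of the members, 9 were matched in the table, with 15 starts, and SLC7A11 was not. CACGTG lay in 2 of these 15, TGATGNAA in 1 and TGACNNNGC in 4, and in no member did matches of different motifs overlap. Of the starts of SLC3A2, only the first held a match, TGACTCAGC from -37. Whether this start serves the SLC3A2 transcript measured here was not tested. The promoter of SLC7A1 held TGACGCGGC from -85. SLC7A6 held TGACGAGGC from -197 and TGACGTGGC from -29. Of the starts of SLC1A5, the second held CACGTG from -50 and, on the opposite strand, GCGAGGTCA from -111, and the third held TGATGCAA from -97, the match to the ATF4 type element. A match describes letters only.

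Library totals ran from 43.0 to 130.1 M fragments. ADAR was at 1085.1 to 1602.9 CPM (counts scaled to the library total) in the 6 libraries with an ADAR1 fusion and at 297.1 to 340.1 CPM in the other 8, and ADARB1 was at 939.5 to 1163.1 CPM in the 6 libraries with an ADAR2 fusion and at 25.5 to 37.2 CPM in the other 8, as the labels have it. Both libraries ctrl replicate 1 and SA1Q+gRNA replicate 1 stood apart. On the first principal component, which held 24.8% of the variance, they lay at -43.6 and -47.7, and the other 12 between 0.457 and 14. The deepest library, SA1+gRNA replicate 2, held no odd count: the share of even numbers among its nonzero counts was 100.0%, where the rest had 47.7% to 48.7%. The 7 markers expected in 293 cells all passed the filter, although NEFM and PAX2 were low, and their summed level was 677.2 to 798.3 FPKM (fragments scaled to transcript length and library total). KRT8 was called lower in SA1Q than in ctrl (mean 241.2 against 335.4 CPM) and in the SA1Q line than in the SA2Q line. INA was called higher in SA1Q (73.9 against 53.3 CPM) and SA1Q+gRNA than in ctrl. NEFL was called higher in SA2+gRNA than in ctrl (176.5 against 105.1 CPM). Of all genes, 2.8% were called in SA1Q, 1.04% in SA1Q+gRNA and 0.104% in SA2+gRNA, each against ctrl. Between the SA1Q line and the SA2Q line 2.75% were called. The part of these markers in the results below was not tested.

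Per length of transcript, the members differed widely in level in ctrl. SLC1A5 stood at 145.8 ± 10.3 FPKM (SD, n = 2) and SLC3A2 at 123.1 ± 16.7 FPKM (SD, n = 2). Their libraries did not overlap (138.5 and 153.1 against 134.9 and 111.3 FPKM), although the ranges of mean ± SD did. SLC7A5 (47.4 ± 5.25), SLC38A2 (31.1 ± 3.09), SLC38A1 (26.9 ± 2.32), SLC7A1 (25.6 ± 1.76) and SLC7A6 (15.4 ± 1.27 FPKM, each SD, n = 2) followed, of which SLC38A1 and SLC7A1 had overlapping libraries. SLC1A4 was at 5.6 ± 0.582, SLC6A9 at 4.29 ± 0.364 and SLC7A11 at 2.21 ± 0.222 FPKM (SD, n = 2). The heavy chain SLC3A2 was therefore far more abundant per length than any of its 3 light chains measured here. Values below are CPM after TMM scaling, a level of 1 gene across libraries and not a scale for setting genes against each other.

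**Figure D1:**
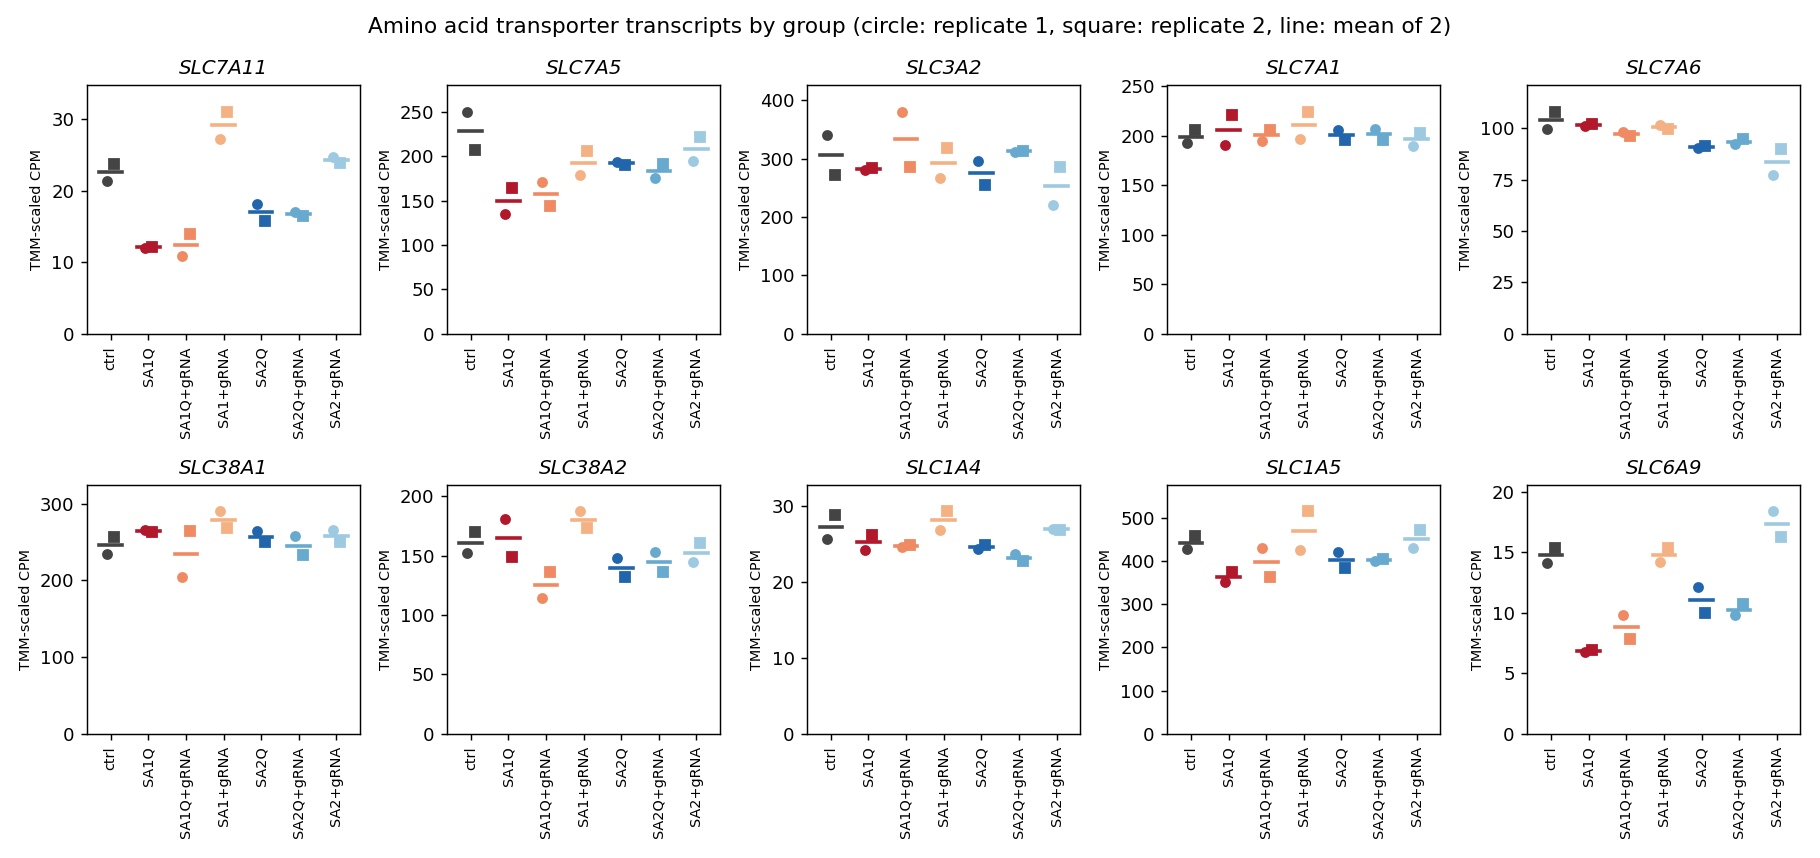
Level of each of the 10 transporter genes (CPM after TMM scaling, 1 panel a gene, linear axis) in the 7 groups, with 1 point a library and a bar at the group mean. SLC7A11 is lowest in the 4 libraries of the SA1Q line, at 10.9 to 14 CPM, SLC6A9 has its lowest group means there, from libraries at 6.74 to 9.83 CPM, and SLC7A1 stays between 189.7 and 224.4 CPM in all 14.

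SLC7A11 encodes the light chain of the antiporter that brings in cystine, the source of cysteine for glutathione, in exchange for glutamate. It lies on chromosome 4, 139085248 to 139163503, minus strand (hg19), and its counts ran from 424 to 3768 fragments. Its level was 21.4 and 23.8 CPM in ctrl, 12 and 12.2 in SA1Q, and 10.9 and 14 in SA1Q+gRNA. It was 27.3 and 31.1 CPM in SA1+gRNA, 18.2 and 15.8 in SA2Q, 17.0 and 16.5 in SA2Q+gRNA, and 24.7 and 23.9 in SA2+gRNA. The 4 libraries of the SA1Q line were the lowest, the 4 of the SA2Q line came next and the other 6 were the highest. These 3 sets did not overlap, and the share of all genes ordered in this way was not counted. By group mean the order was SA1Q, SA1Q+gRNA, SA2Q+gRNA, SA2Q, ctrl, SA2+gRNA and SA1+gRNA. Within it, the libraries of SA1Q and SA1Q+gRNA overlapped and so did those of SA2Q and SA2Q+gRNA. SA2+gRNA lay above ctrl by 0.11 on the log2 scale with an SE of 0.12, which did not pass the test.

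SLC6A9 encodes a glycine transporter coupled to sodium and chloride (chromosome 1, 44462155 to 44497164, minus strand), with counts of 324 to 1860 fragments. Its level was 14.1 and 15.4 CPM in ctrl, 6.74 and 7.0 in SA1Q, and 9.83 and 7.8 in SA1Q+gRNA. It was 14.2 and 15.4 CPM in SA1+gRNA, 12.1 and 9.9 in SA2Q, 9.78 and 10.7 in SA2Q+gRNA, and 18.4 and 16.3 in SA2+gRNA. All 4 libraries of the SA1Q line were below all of ctrl, SA1+gRNA and SA2+gRNA, and the SA2Q line lay between, overlapping SA1Q+gRNA. By mean the order was SA1Q, SA1Q+gRNA, SA2Q+gRNA, SA2Q, ctrl, SA1+gRNA and SA2+gRNA, in which SA2Q+gRNA overlapped SA2Q and ctrl overlapped SA1+gRNA.

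SLC7A5 encodes the light chain of an exchanger of large neutral amino acids such as leucine (chromosome 16, 87863629 to 87903100, minus strand). Its level was 250.4 and 206.9 CPM in ctrl, 135.5 and 164.5 in SA1Q, and 170.9 and 143.9 in SA1Q+gRNA. It was 178.7 and 205.6 CPM in SA1+gRNA, 194.1 and 190.2 in SA2Q, 175.6 and 190.8 in SA2Q+gRNA, and 194.2 and 222.2 in SA2+gRNA. The 4 libraries of the SA1Q line were the lowest of the 14, a pattern whose share over all genes was not counted. The other 5 groups overlapped in a chain from SA2Q+gRNA up to ctrl. SLC3A2, its heavy chain (chromosome 11, 62623484 to 62656355, plus strand), did not share this pattern. SLC3A2 was at 340.8 and 271.7 CPM in ctrl, 280.1 and 283.5 in SA1Q, and 380.6 and 285.5 in SA1Q+gRNA, so that each SA1Q group overlapped ctrl, while both SA1Q+gRNA libraries lay above both of SA1Q (log2 difference 0.24, SE 0.15, adjusted p = 0.49).

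In SA1Q against ctrl, 3 of the 10 members were called at an adjusted p under 0.05, all lower, against 2.8% of the 16418 genes in either direction and 1.74% lower. SLC6A9 changed by -1.11 on the log2 scale (SE 0.14, edgeR quasi-likelihood test, adjusted p = 0.0018) and SLC7A11 by -0.90 (SE 0.12, adjusted p = 0.0023). SLC7A5 changed by -0.61 (SE 0.12, adjusted p = 0.02), a call that was lost without ctrl replicate 1 (adjusted p = 0.086), SA1Q replicate 1 (0.20) or SA1Q replicate 2 (0.057). SLC7A11 and SLC6A9 were called in all 14 alternatives, with log2 changes of -1.09 to -0.55 and -1.17 to -0.81. SLC1A5, an exchanger of glutamine and other small neutral amino acids, was at 351.3 and 375.3 CPM in SA1Q and 429.2 and 458.5 CPM in ctrl, a log2 difference of -0.29 that missed the threshold (adjusted p = 0.13). Without both libraries that stood apart, SLC1A5 was called too (-0.34, adjusted p = 0.036), which made 4 members, and 1225 genes of the table were called in place of 460. The other 6 members differed by less than that, and the median log2 change of the 10 was -0.12, with 7 below 0, beside 0.00 for all genes. Of the 460 genes called, 175 were higher and 285 lower, a split that turned to 466 higher and 365 lower after correction for length and GC content. In these bulk samples, fewer cells of a kind and less RNA per cell cannot be told apart.

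In SA1Q+gRNA against ctrl the same 3 members were called lower, against 1.04% of all genes (0.621% lower; 69 higher and 102 lower, and 517 and 457 after the correction for length and GC content). SLC7A11 changed by -0.85 (SE 0.12, edgeR, adjusted p = 0.0042), SLC6A9 by -0.75 (SE 0.13, adjusted p = 0.015) and SLC7A5 by -0.54 (SE 0.12, adjusted p = 0.048). This comparison uses the same ctrl libraries as the one before. The call of SLC7A5 was lost without ctrl replicate 1 (adjusted p = 0.14) or SA1Q+gRNA replicate 2 (0.091), with DESeq2's size factors (0.052) and with counts summed over a gene's transcripts (0.062), and that of SLC6A9 without ctrl replicate 2 (0.056). Without both libraries that stood apart, all 3 were called, SLC6A9 at -0.98, SLC7A11 at -0.77 and SLC7A5 at -0.52.

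The lines with the substitution and without it were compared with guide in both. In SA1Q+gRNA against SA1+gRNA, 3 members were called, all lower, against 0.962% of all genes (0.512% lower). SLC7A11 changed by -1.22 (SE 0.12, edgeR, adjusted p = 0.00029), from a mean of 29.2 ± 2.69 to 12.5 ± 2.18 CPM (SD, n = 2), which is 2.34-fold lower. SLC6A9 changed by -0.76 (SE 0.13, adjusted p = 0.017), but not without SA1+gRNA replicate 1 or 2 (adjusted p = 0.12 each). SLC38A2, a sodium-coupled carrier of alanine and glutamine that cells raise when amino acids are scarce (chromosome 12, 46751971 to 46766645, minus strand), was at 114.4 and 136.4 CPM in SA1Q+gRNA and 187.3 and 173.2 CPM in SA1+gRNA. Its change of -0.52 (SE 0.11, adjusted p = 0.043) was lost without SA1Q+gRNA replicate 1 (0.29), SA1+gRNA replicate 1 (0.36) or SA1+gRNA replicate 2 (0.12), and when both apart-standing libraries were left out (0.088). It was lost too by limma on log2(FPKM + 1) (0.077) and log2(FPKM + 0.1) (0.062) and with summed transcripts (0.067). Because SLC38A2 was at 180.5 and 148.4 CPM in SA1Q without guide, it did not separate the SA1Q line from ctrl, which was at 152.4 and 169.6 CPM. The median over the 10 members was -0.25, with 9 below 0. In SA2Q+gRNA against SA2+gRNA none of the 10 was called by edgeR, against 0.0122% of all genes (2 genes). At an unadjusted p under 0.05 there were 3 members, against 1291 of 16418 genes. DESeq2 called 2 members, SLC6A9 and SLC7A11, among 57 genes of the table (0.347%). SLC6A9 differed by -0.76 there (SE 0.13, adjusted p = 0.11) and SLC7A11 by -0.54 (SE 0.12, adjusted p = 0.24). Without both libraries that stood apart, neither of which belongs to these groups, both were called, at adjusted p of 0.0025 and 0.012, and so were 119 genes (0.725%).

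**Figure D2:**
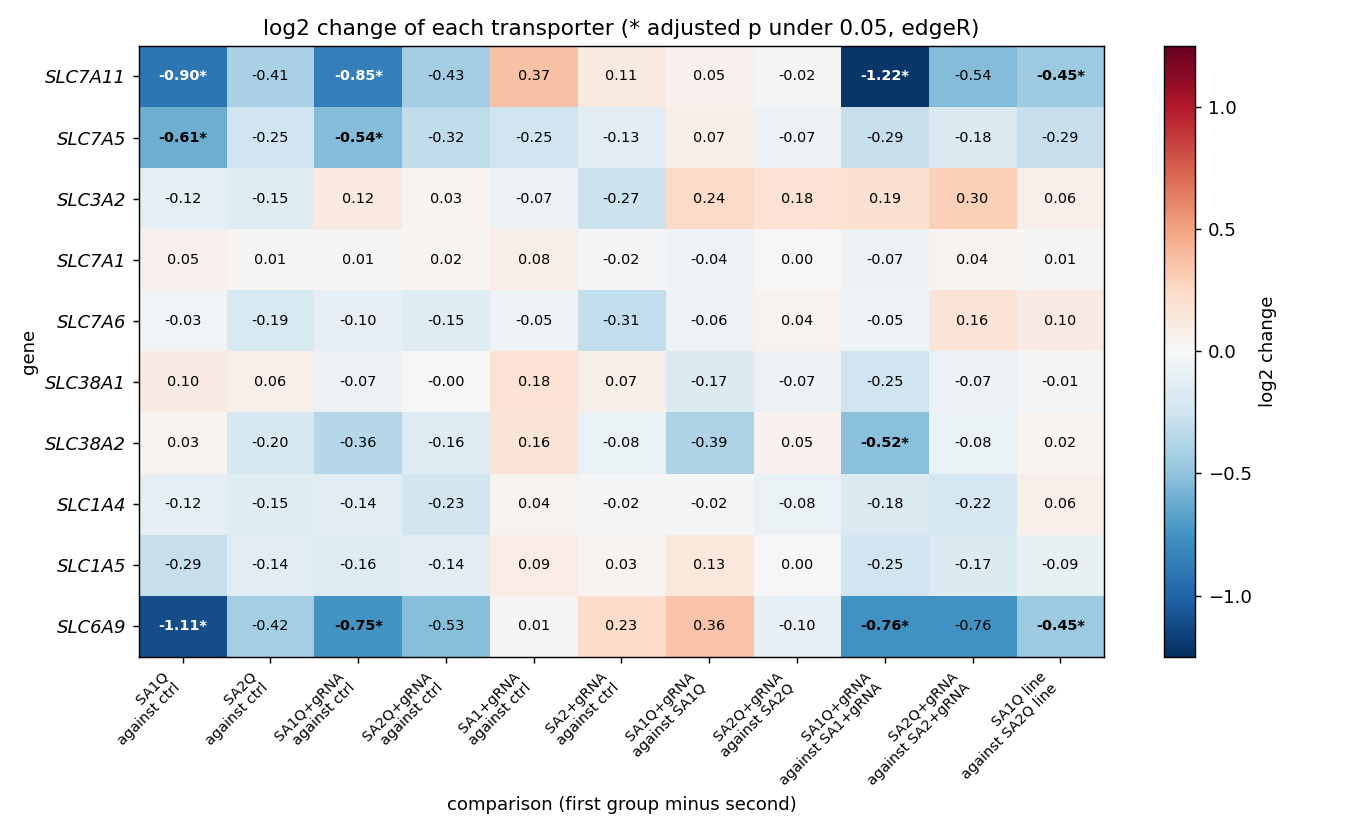
Log2 change of each member (rows) in each comparison between groups (columns), on a colour scale centred at 0, with an asterisk where the adjusted p was under 0.05. The asterisks lie on SLC7A11, SLC6A9, SLC7A5 and SLC38A2 and in comparisons that include the SA1Q line, such as -1.22 for SLC7A11 in SA1Q+gRNA against SA1+gRNA.

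In SA2Q against ctrl 0 of the 10 members were called by edgeR, against 0.0853% of all genes (0.0305% lower), and in SA2Q+gRNA against ctrl 0 of 10, against 0.067% (0.0244% lower). At an unadjusted p under 0.05 there were 3 and 4 members, against 1455 and 1654 of 16418 genes. DESeq2 called 0 and 1, SLC6A9 (adjusted p = 0.039), with 0.554% and 0.615% of all genes. SLC7A11 differed by -0.41 on the log2 scale in SA2Q (95% interval -0.70 to -0.13, adjusted p = 0.28) and by -0.43 in SA2Q+gRNA (-0.72 to -0.15, adjusted p = 0.24). SLC6A9 differed by -0.42 (-0.73 to -0.11, adjusted p = 0.30) and -0.53 (-0.84 to -0.22, adjusted p = 0.17). These unadjusted intervals lie below 0, and so did those of SLC7A5 (-0.61 to -0.03) and SLC1A4 (-0.45 to -0.02) in SA2Q+gRNA. SLC7A11 and SLC6A9 had every library of the SA2Q line under every ctrl library. The same held for SLC7A5, SLC1A4, SLC1A5 and SLC7A6, and the share of all genes separated in this way was not counted. Without both libraries that stood apart, SLC7A11 was called in SA2Q (adjusted p = 0.027), and SLC7A11 (0.019) and SLC6A9 (0.022) in SA2Q+gRNA. That setting called 570 genes (3.47%) in SA2Q and 855 (5.21%) in SA2Q+gRNA, in place of 14 and 11. In SA1+gRNA and SA2+gRNA against ctrl no member was called, against 0.0426% and 0.104% of all genes. In each, 1 of the 10 members had an unadjusted p under 0.05, against 1750 and 1674 of 16418 genes, about the same share. DESeq2 called 0 and 1, SLC7A6 (adjusted p = 0.049), with 0.615% and 0.804% of all genes. SLC7A11 was higher in SA1+gRNA by 0.37 (SE 0.12, adjusted p = 0.32). SLC7A6, an exchanger of cationic for neutral amino acids (chromosome 16, 68298419 to 68335726, plus strand), was at 77.4 and 90 CPM in SA2+gRNA and 99.5 and 108.1 CPM in ctrl, a log2 difference of -0.31 (SE 0.08, adjusted p = 0.19). It was called without both libraries that stood apart (-0.37, adjusted p = 0.026), where 469 genes (2.86%) were called in place of 17.

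The SA1Q line was set directly against the SA2Q line, with and without guide together, 4 libraries on each side. In the SA1Q line SLC7A11 was lower, with a log2 change of -0.45 (SE 0.09, edgeR, adjusted p = 0.014), and so was SLC6A9, with -0.45 (SE 0.10, adjusted p = 0.022), 2 of 10 members, against 2.75% of all genes (1.72% lower; 169 higher and 283 lower, and 845 and 724 after the correction for length and GC content). The libraries of SLC7A11 did not overlap between the lines (10.9 to 14 against 15.8 to 18.2 CPM), whereas SLC6A9 was at 9.83 CPM in SA1Q+gRNA replicate 1 and at 9.78 CPM in SA2Q+gRNA replicate 1. SLC7A11 was no longer called without SA1Q replicate 1 (adjusted p = 0.059), SA1Q replicate 2 (0.059), SA2Q replicate 1 (0.080), SA2Q+gRNA replicate 1 (0.064) or SA2Q+gRNA replicate 2 (0.059), nor by limma on log2(FPKM + 1) (0.057) or log2(FPKM + 0.1) (0.052). SLC6A9 was lost on leaving out the same 5 libraries, at 0.087, 0.077, 0.12, 0.061 and 0.12. SLC7A5 differed by -0.29 (SE 0.09, adjusted p = 0.091). Without both libraries that stood apart, all 3 were called, with SLC7A5 at -0.35.

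The guide was tested within each Q line. No member and no gene of the table was called in SA1Q+gRNA against SA1Q or in SA2Q+gRNA against SA2Q by edgeR (0.0% each), nor by DESeq2, while 2005 and 291 genes had an unadjusted p under 0.05. SLC7A11 differed with guide by 0.05 in SA1Q (95% interval -0.24 to 0.35) and by -0.02 in SA2Q (-0.30 to 0.27). SLC38A2 had the smallest p in SA1Q, -0.39 with an interval of -0.66 to -0.12 (adjusted p = 0.39), and SLC6A9 differed by 0.36 (0.03 to 0.68, adjusted p = 0.39). Without SA1Q+gRNA replicate 2, which leaves a library that stood apart as the only one of its group, SLC38A1, SLC38A2 and SLC6A9 were called and so were 2134 genes. The guide's change was not shown to differ between the lines: of 16418 genes 0 were called by edgeR or DESeq2 (930 at an unadjusted p under 0.05), and the adjusted p of the members was at least 0.71.

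**Figure D3:**
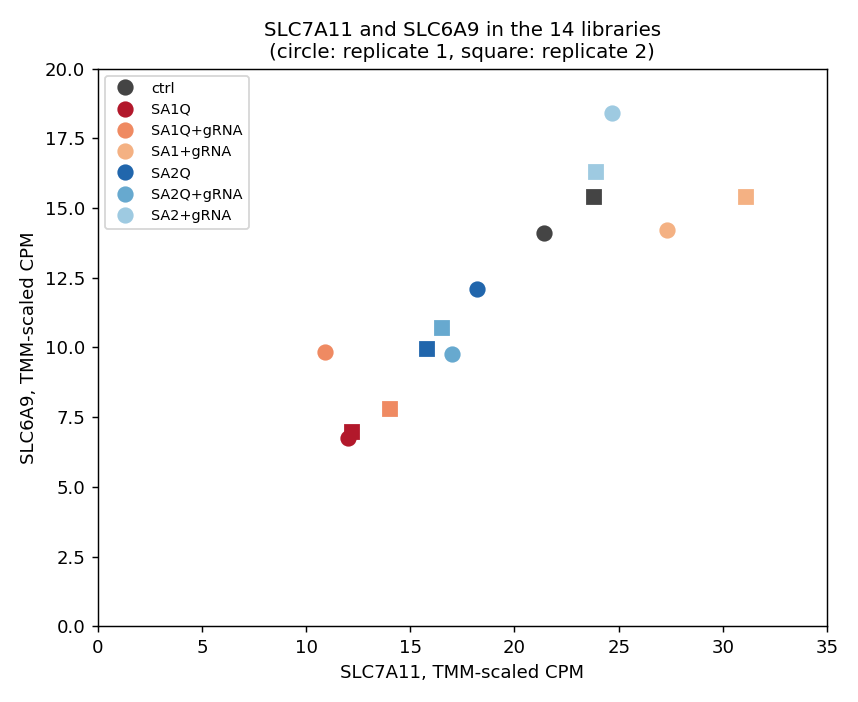
SLC7A11 (horizontal) against SLC6A9 (vertical), both in CPM, with 1 point for each of the 14 libraries, marked by group. The 8 libraries of the Q lines lie at or below 18.2 CPM of SLC7A11 and 12.1 CPM of SLC6A9, and the other 6 at or above 21.4 and 14.1.

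Seen over the 7 groups at once, SLC7A11 (adjusted p = 0.00026) and SLC6A9 (0.00068) were called by edgeR and SLC7A5 was not (0.08), against 1.57% of all genes. In a description chosen after the values were seen, the 8 Q libraries were set beside the other 6. SLC7A11 ran from 10.9 to 18.2 CPM (median 14.9) in the former and from 21.4 to 31.1 (median 24.3) in the latter. SLC6A9 ran from 6.74 to 12.1 (median 9.8) and from 14.1 to 18.4 (median 15.4), so both genes were lower in every Q library. The same held for 81 genes of the table, 0.493%, and for no other member. SLC1A4, a carrier of alanine, serine and cysteine (chromosome 2, 65216495 to 65251000, plus strand), came close, at 22.7 to 26.2 CPM in the Q libraries and 25.7 to 29.3 CPM in the others. SLC1A5 (chromosome 19, 47278140 to 47291842, minus strand) was at 351.3 to 432.0 and 426.4 to 516.4 CPM.

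In the main edgeR fit the remaining members were called in none of the comparisons. Some of the alternatives called SLC1A5, SLC7A6 or SLC38A1. SLC7A1, the main carrier of arginine and lysine in many cells (chromosome 13, 30083551 to 30169825, minus strand), had a highest library 1.18 times its lowest. The ratio was 1.29 for SLC1A4, 1.4 for SLC7A6, 1.42 for SLC38A1, 1.47 for SLC1A5 and 1.72 for SLC3A2, against 1.64 for SLC38A2, 1.85 for SLC7A5, 2.85 for SLC7A11 and 2.74 for SLC6A9. SLC38A1, a sodium-coupled glutamine carrier (chromosome 12, 46576840 to 46663208, minus strand), was lowest at 203.9 CPM in SA1Q+gRNA replicate 1, which stood apart, while its other 13 libraries lay between 233.4 and 289.9 CPM. SLC3A2 was highest at 380.6 CPM in that same library and second highest in ctrl replicate 1, the other library that stood apart.

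Across the 14 libraries, the profile of SLC7A11 was most like that of SLC6A9 among the members (Pearson's r of log2 CPM 0.89), followed by SLC1A5 (0.77), SLC1A4 (0.70), SLC7A5 (0.67), SLC38A2 (0.57) and SLC38A1 (0.45). It was least like SLC7A1 (0.14), SLC7A6 (-0.14) and SLC3A2 (-0.30). Of 10216 genes outside the members with a mean of at least 10 CPM, the 5 most like SLC7A11 were EIF4B (r = 0.947), a translation initiation factor, SPTLC2 (0.924), a subunit of the first enzyme of sphingolipid synthesis, IRS4 (0.921), an insulin receptor substrate, EIF3L (0.92), a subunit of another initiation factor, and SNHG5 (0.918), a host of small nucleolar RNAs. The mean profile of the 10 members was most like EIF3L (0.92), QARS1 (0.889), EIF4B (0.879), SNHG5 (0.879) and RPL13A (0.878). These values describe 14 libraries that share groups, depths and the libraries that stood apart.

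Of 32 other plasma membrane amino acid transporters, 25 were tested. In SA1Q against ctrl 0 were called higher and 2 lower, against 2.8% of all genes in either direction and 1.74% lower. SLC7A8, a further light chain of SLC3A2, changed by -0.63 (SE 0.10, edgeR, adjusted p = 0.0071) and SLC43A1, a carrier of large neutral amino acids, by -0.40 (SE 0.09, adjusted p = 0.037). SLC7A8 was also lower in SA1Q+gRNA against ctrl (-0.56), and both were lower in the SA1Q line against the SA2Q line (-0.57 and -0.38). The median of the 25 in SA1Q against ctrl was -0.07. Of 18 lysosomal and mitochondrial carriers, 17 were tested and SFXN3, a mitochondrial sideroflexin, was the only one called. It was at -0.74 (edgeR, adjusted p = 0.015) in SA1Q and -0.87 (adjusted p = 0.0077) in SA1Q+gRNA, each against ctrl, where 2.8% and 1.04% of all genes were called.

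Of 32 genes of amino acid deficiency and ATF4, 31 were tested. In SA1Q against ctrl 6 were called lower and 1 higher, against 2.8% of all genes, with a median of -0.29 and 26 of 31 below 0. CHAC1, which degrades glutathione, changed by -1.43 (SE 0.18, edgeR, adjusted p = 0.0018), PHGDH, the first enzyme of serine synthesis, by -0.53 (adjusted p = 0.018), SHMT2, which makes mitochondrial glycine from serine, by -0.38 (adjusted p = 0.03) and ASNS, asparagine synthetase, by -0.43 (adjusted p = 0.036). The gene called higher was CEBPG, a C/EBP family partner of ATF4 (0.29, adjusted p = 0.047), outside the rule for named genes. In SA1Q+gRNA against SA1+gRNA 10 were called, all lower, against 0.962% of all genes, with a median of -0.25. The smallest p-values were those of PSAT1, a serine synthesis enzyme (-0.60), ASNS (-0.81), ALDH1L2, a mitochondrial folate enzyme (-1.43) and STC2, a secreted glycoprotein (-0.71). In the SA1Q line against the SA2Q line 7 were lower and 1 higher, against 2.75% of all genes. In SA2Q+gRNA against SA2+gRNA 0 of 31 were called by edgeR, against 0.0122% of all genes. An unadjusted p under 0.05 was found for 19, against 1291 of 16418 genes, and the median was -0.22 with 28 below 0. Against ctrl the medians of the list were 0.11 in SA1+gRNA and 0.13 in SA2+gRNA, with 4 of 31 below 0 in each. The median was -0.02 in SA2Q+gRNA, with 16 below 0. In SA1Q+gRNA it was -0.16, with 23 below 0 and 4 called, all lower, against 1.04% of all genes. These comparisons share the ctrl libraries. Some of these genes were known to be lower in SA1Q when the list was written.

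Of 16 glutathione and cystine redox genes, all tested, 2 were called lower in SA1Q against ctrl, where 1.74% of all genes were called lower. CBS, which makes cystathionine on the way to cysteine, changed by -0.38 (SE 0.08, edgeR, adjusted p = 0.03) and AIFM2, a suppressor of ferroptosis, by -0.45 (SE 0.12, adjusted p = 0.0496). CBS was lower also in SA1Q+gRNA against ctrl (-0.40) and against SA1+gRNA (-0.40), where 14 of the 16 were below 0 with a median of -0.21. In the SA1Q line against the SA2Q line 3 were called lower, against 1.72% of all genes. They were CBS (-0.39), AIFM2 (-0.51) and GGT1, which cleaves extracellular glutathione (-0.46). All 16 were below 0 with a median of -0.10. None of 29 genes of amino acid sensing and mTORC1 was called in either SA1Q comparison with ctrl, between the Q lines or between the lines with and without substitution, by edgeR. Of all genes, 0.0122% to 2.8% were called in these comparisons, so few or no calls would be needed to match that share. In SA1Q against ctrl 8 of the 29 had an unadjusted p under 0.05, against 3479 of 16418 genes, and the median of the 29 was -0.03.

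**Figure D4:**
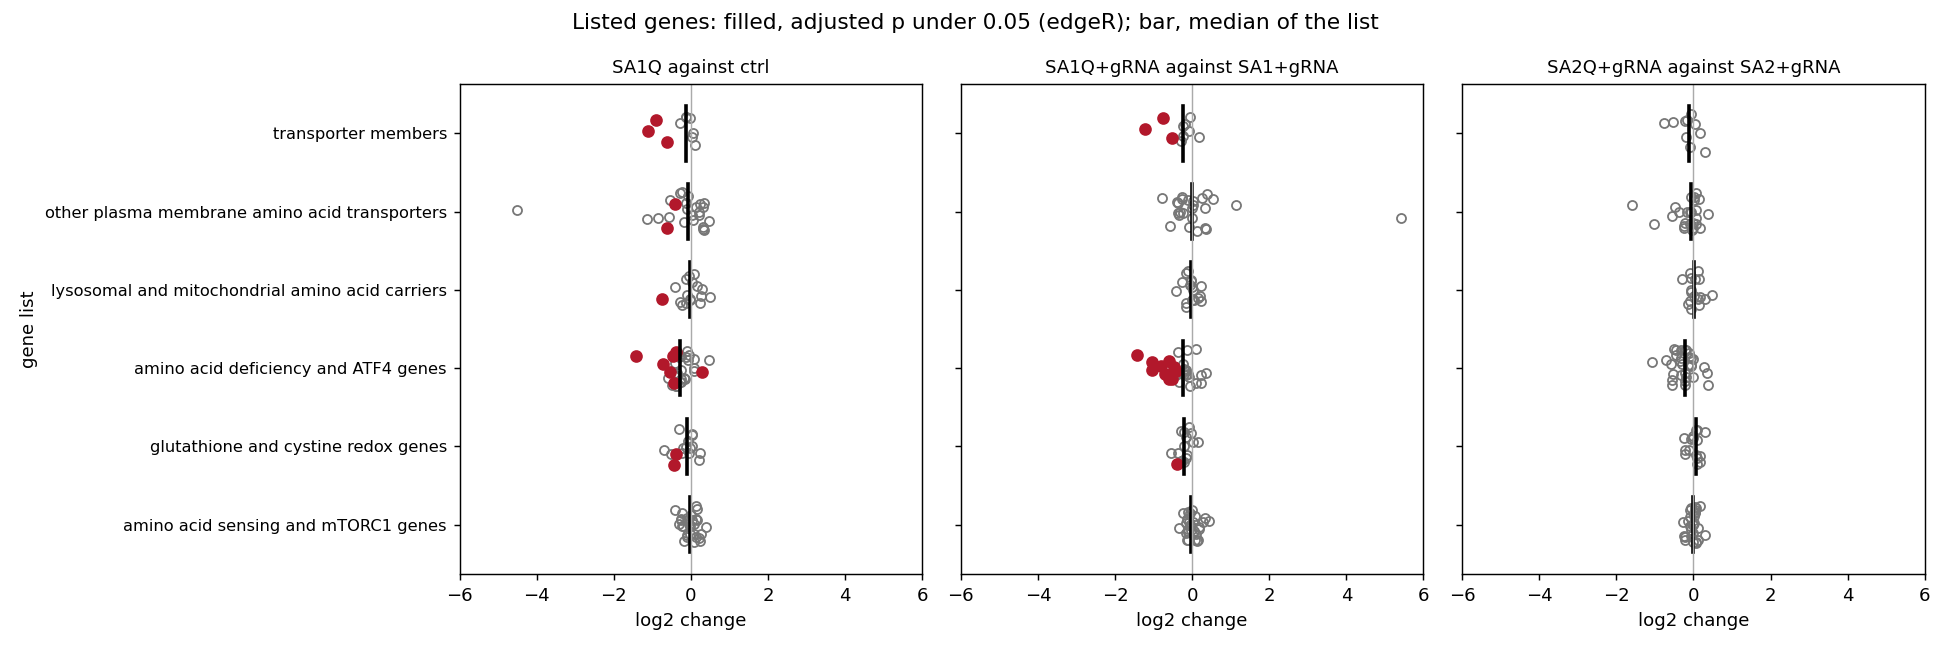
Log2 change of the tested genes of each list (1 point a gene, a bar at the median, called genes marked) in SA1Q against ctrl, SA1Q+gRNA against SA1+gRNA and SA2Q+gRNA against SA2+gRNA. The ATF4 list has medians of -0.29, -0.25 and -0.22, and the sensing and mTORC1 list -0.03, -0.03 and 0.00.

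The summed level of markers of other cell types was lowest in the SA1Q line. Of 10 listed, 9 passed the filter and PECAM1 did not. Their summed level was 36.4 to 40.0 FPKM in SA1Q and 33.9 to 37.2 in SA1Q+gRNA, against 45.8 to 46.3 in ctrl, 44.6 to 45.3 in SA1+gRNA and 47.0 to 52.0 in the 3 groups with an ADAR2 fusion. Most of this was LCP1 and CD68, while PTPRC, which defines blood cells, was at most 0.0693 FPKM in any library. LCP1 and CD68 were called lower in the SA1Q line than in the SA2Q line (2.75% of all genes called), but not against ctrl. In SA1Q against ctrl only COL1A1 was called, lower (2.8% of all genes called). In SA1Q+gRNA none was called against ctrl or SA1+gRNA. Against SA1+gRNA the median was 0.14, with 4 of 9 below 0. Their part in the results for the transporters was not tested.

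The files give several RefSeq transcripts for 6 members, which share fragments, and some neighbours overlap. SLC7A11-AS1 lies on the opposite strand across 14084 bases of the span of SLC7A11, and its counts of 23 to 160 fragments came to 2.57% to 7.58% of those of SLC7A11. Whether the authors' counting used strand is not given in the sources used here, so reads of this pair could have been mixed. SLC7A6OS overlaps SLC7A6 and CCDC24 overlaps SLC6A9 by 44 bases, both on the opposite strand. In SLC38A1 the count of a shorter transcript was 17.6% to 22.6% of that of the longest over the 14 libraries, and in SLC1A5 that of a shorter one was 67.4% to 72.1%. The 17.6% was that of SA1Q+gRNA replicate 1, which stood apart. Because these transcripts share fragments, the ratios do not measure the share of each form.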

How the data were processed

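The 14 libraries were made by poly(A) selection with a stranded kit and sequenced paired-end, per the labels' protocols; Trim Galore, STAR 2.4.2a and hg19 are named in the submitters' processing notes, without roles. The counting tool is not given in the sources used here. The deposited count column held raw fragment counts per RefSeq transcript. The FPM signal and the FPKM were scaled by the authors to the library, and the FPKM also to transcript size, per the file headers; FPM was used to choose transcripts and FPKM for levels per length.

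Of 45595 accessions, 98.6% were named (44377 from a RefSeq table of GRCh38.p14, used for names, and 569 from GENCODE). Left out were 887 unnamed entries (0.81% of the counts) and 2309 named entries under 200 nucleotides. The test was that of edgeR 4.0.16 under R 4.3.3 (TMM scaling, filterByExpr with a minimum count of 10, quasi-likelihood test, two-sided, all 14 libraries in 1 fit, no covariate). P-values were adjusted by Benjamini-Hochberg over 16418 genes and called under 0.05. The fit had 7 residual degrees of freedom and a biological coefficient of variation of 8.7%. Intervals are at 95%, without adjustment, from a t distribution on the 7 residual degrees of freedom. An interval can cross 0 where the test's unadjusted p is under 0.05. This was so for SLC7A6 in SA2Q against ctrl (-0.39 to 0.01, edgeR, unadjusted p = 0.037). SEs are the log2 change over the root of F. Fits were tested on simulated data. Alternatives were DESeq2 1.42.0 or its size factors, limma 3.58.1 on log2(FPKM + 1) or log2(FPKM + 0.1), no filter, a replicate block, a correction for length and GC content (95.4% of genes had a GC value), SA1+gRNA replicate 2 with its counts divided by 2, counts summed over transcripts, no libraries that stood apart, and leaving out each library.

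The members, gene lists and tests were chosen with earlier results of these data known. All members were named; of each other list, up to 4 called genes with the smallest p (or 2 where none was called), and the 5 genes most like the members and SLC7A11. By the check of replicate numbers, not every pair of groups shared deviations, so the libraries were not treated as paired. The labels' independent experiments are not described further, so p-values measure the spread between these libraries.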

Additional observations from a re-analysis of the deposited data

How the results depend on the processing

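The 11 member changes called above had 162 alternatives. In 131 they stayed called in the same direction, in 31 they were no longer called and in 0 they reversed; of 109 member changes not called, 51 changed sign in at least 1 alternative. Counts of members called moved as follows, with the share of all genes called in the same setting in brackets. Without both libraries that stood apart, 1 was called in SA2Q against ctrl (3.47%), 2 in SA2Q+gRNA against ctrl (5.21%) and 1 in SA2+gRNA against ctrl (2.86%). In that setting 2 were called in SA2Q+gRNA against SA2+gRNA (0.725%) and 6 over the 7 groups (11.3%). With the correction for length and GC content, 1 was called in SA2Q against ctrl (1.05%) and 5 in SA1Q+gRNA against SA1+gRNA (4.11%). The same correction gave 2 in SA2Q+gRNA against SA2+gRNA (0.201%) and 5 over the 7 groups (8.36%). DESeq2 called 1 in SA2Q+gRNA against ctrl (0.615%), 1 in SA2+gRNA against ctrl (0.804%), 2 in SA2Q+gRNA against SA2+gRNA (0.347%) and 4 over the 7 groups (8.23%). Without a filter, 1 was called in SA2Q+gRNA against SA2+gRNA (0.0687%) and 4 over the 7 groups (3.28%). On log2(FPKM + 1) and log2(FPKM + 0.1), limma called 1 each between the Q lines (2.36% and 2.44%). Leaving out each library in turn gave 2 to 3 members in SA1Q and in SA1Q+gRNA against ctrl, 0 to 3 in SA1Q+gRNA against SA1Q, 1 to 4 in SA1Q+gRNA against SA1+gRNA, 0 to 3 between the Q lines, 2 to 4 over the 7 groups and 0 to 0 in the others. The causes were not tested.

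Same-numbered libraries did not deviate together in every pair of groups: over 21 pairs the correlation ran from -0.14 to 0.44, with a median of -0.02, and 2 were over 0.1. The highest was that of ctrl with SA1Q+gRNA, whose replicates 1 are the libraries that stood apart. With a replicate block, 3 members were called in SA1Q against ctrl, 2 in SA1Q+gRNA against ctrl, 2 in SA1Q+gRNA against SA1+gRNA, 2 between the Q lines and 2 over the 7 groups; SLC7A5 in SA1Q+gRNA against ctrl had an adjusted p of 0.073 and SLC38A2 one of 0.070. Over all genes, 460 calls in SA1Q against ctrl became 304 with the block and 1225 without both libraries that stood apart, 452 between the Q lines became 303 and 1973, and 258 over the 7 groups became 160 and 1850. Against ctrl, leaving out the same 2 libraries raised SA2Q from 14 to 570 calls, SA2Q+gRNA from 11 to 855 and SA2+gRNA from 17 to 469, and SA2Q+gRNA against SA2+gRNA rose from 2 to 119. In SA1Q+gRNA the 171 calls against ctrl and the 158 against SA1+gRNA became 974 and 675 with the correction for length and GC content. Leaving out 1 library gave from 38 (SA1Q replicate 2) to 826 (ctrl replicate 2) calls in SA1Q against ctrl, from 84 (SA2Q replicate 2) to 744 (SA1Q+gRNA replicate 1) between the Q lines, from 156 (SA1Q+gRNA replicate 1) to 466 (SA1Q+gRNA replicate 2) in SA1Q+gRNA against ctrl, from 17 (SA1+gRNA replicate 1) to 2090 (SA1Q+gRNA replicate 2) against SA1+gRNA and from 85 (SA1Q replicate 2) to 1032 (SA1Q+gRNA replicate 2) over the 7 groups. With 2 libraries a group, each SD rests on 1 pair, and the lone library left in a group was assumed to vary like the others.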

Other observations

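SLC6A5, which encodes the glycine transporter of inhibitory neurons and is known from few other cells, was chosen here after its values were seen. The libraries that stood apart held 42 (ctrl replicate 1) and 46 fragments (SA1Q+gRNA replicate 1), and each of the other 12 held 0 to 3. It was called in no comparison described above.

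ALDH1L2, a mitochondrial folate enzyme of the ATF4 list, was higher in both lines without the substitution than in ctrl, by 1.67 on the log2 scale in SA1+gRNA (SE 0.22, edgeR, adjusted p = 0.0058) and by 1.51 in SA2+gRNA (SE 0.23, adjusted p = 0.017). Its mean level was 2.6 CPM in ctrl, 8.43 CPM in SA1+gRNA and 7.57 CPM in SA2+gRNA. These comparisons share the ctrl libraries. No transporter of the 10 was called in either of them.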
